A study of Mus musculus with 51 samples.

Results

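The comparison described here is the difference between gp91phox-/- (KO) and C57Bl/6 (WT) alveolar macrophages in their 2 h response to the higher dose of Aspergillus fumigatus conidia. For each probe set it was computed on the log2 scale as KO 2 h e7 minus KO 2 h mock, less WT 2 h e7 minus WT 2 h mock. It used 14 of the 51 arrays of the series, assigned by their titles: 3 KO arrays with e7, 3 KO arrays with mock inoculation, 4 WT arrays with e7 and 4 WT arrays with mock treatment. A positive difference means that the change with e7 was more upward in the KO.

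The study exposed the lungs of mice to conidia and measured the RNA of their alveolar macrophages on Affymetrix mouse arrays. The 51 arrays formed 15 groups, 21 arrays from KO and 30 from WT mice, at 0, 2 or 4 h after conidia at e6 or e7, mock treatment or beads. The KO groups used here were gp91phox-/- macrophages 2 h after e7 conidia and gp91phox-/- macrophages 2 h after mock inoculation, and the WT groups were C57Bl/6 macrophages at the same times and treatments. The labels give the dose as e6 or e7 with no unit, and they give neither the age or sex of the mice, the number of mice behind an array, nor the day of hybridization. They call the replicates of a group biological, so the p-values measure the spread between arrays as labelled. The source field of the WT e7 arrays also mentions an untreated control, whereas their titles and treatment field give conidia, and the titles were followed.

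Alveolar macrophages are the resident phagocytes of the airspaces and take up inhaled conidia, the spores of the mould, within the first hours. Cybb encodes gp91phox, the membrane-bound catalytic subunit of the phagocyte NADPH oxidase, which moves electrons from NADPH to oxygen and makes superoxide in the phagosome. Mice and people without it are highly susceptible to invasive aspergillosis, and their phagocytes are known for strong inflammatory reactions to fungal material.

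The targeted gene was read first. Cybb had log2 signals of 8.84, 8.85 and 8.48 in the KO e7 arrays and 8.34, 8.78 and 8.62 in the KO mock arrays, against 10.59, 11.23, 11.09 and 10.99 in the WT e7 arrays and 11.23, 11.22, 11.10 and 11.70 in the WT mock arrays. All KO arrays lay below all WT arrays, with limma differences of -2.25 in e7 (adjusted p = 2.65e-06) and -2.73 in mock (adjusted p = 4.14e-08). Whether the probe set lies in the deleted part of the gene is not given in the sources used here. The response of Cybb itself differed by 0.48 ± 0.41 (limma SE) between the genotypes and was not called (adjusted p = 0.614).

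The 14 arrays carried the macrophage label in their markers and differed in a property of the low signals. The mean log2 signal of 18 measured alveolar macrophage markers was 12.85 to 12.92 in KO e7, 13.15 to 13.18 in KO mock, 12.69 to 12.77 in WT e7 and 12.89 to 13.17 in WT mock. The share of probe sets with a signal under 50 was 34.9, 37.3 and 32.7% in KO e7 and 43.2, 42.0 and 42.9% in KO mock, against 44.3, 43.7, 43.7 and 43.4% in WT e7 and 42.8, 43.1, 41.6 and 43.1% in WT mock. Among the 14, the KO e7 arrays lay below all the others. The gap averaged 7.73 percentage points against KO mock (exact permutation test, two-sided, p = 0.1, the smallest that 3 against 3 allows). Against WT e7 it was 8.81 points (exact p = 0.0286, the smallest that 3 against 4 allows). Low shares also occurred outside the 14 arrays. They were 32.6 to 33.1% in KO 4 h e6, 35.8 to 40.1% in KO 4 h mock, 37.7 to 41.3% in KO 4 h e7, and 30.1 and 43.6% in WT 4 h beads. The remaining groups had 41.4 to 44.9%. The log2 3'/5' signal ratio of the actin and Gapdh control probe sets, a measure of RNA degradation and labelling, averaged 2.10 in KO e7, 1.05 in KO mock, 3.22 in WT e7 and 1.30 in WT mock. WT e7 exceeded WT mock by 1.91 (exact p = 0.0286), and none of the 12 tests of array measures passed after Benjamini-Hochberg adjustment (lowest adjusted p = 0.0858).

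**Figure D1:**
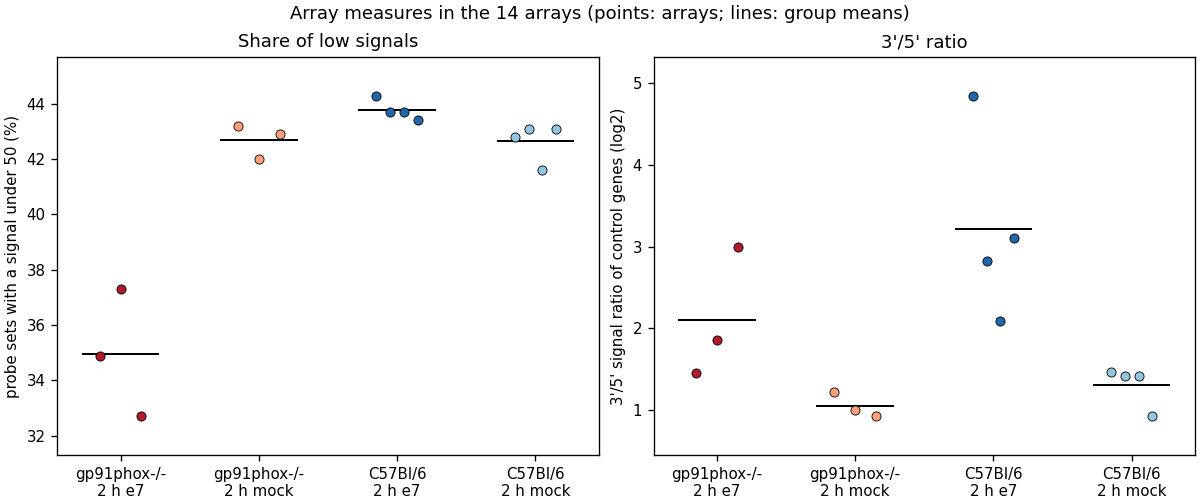
Share of probe sets with a signal under 50 (left, percent) and log2 3'/5' signal ratio of the control genes (right) in each of the 14 arrays, with lines at the group means. The 3 KO e7 arrays had 32.7 to 37.3% of probe sets under 50, below the 41.6 to 44.3% of the other 11 arrays.

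The difference in response was called by limma (adjusted p under 0.05) for 167 of 12393 genes. Of these, 127 were higher in the KO (1.02% of the genes tested) and 40 were lower (0.323%). E7 itself changed 8.54% of genes in the KO (729 or 5.88% higher and 329 or 2.65% lower, and 338 and 536 after quantile normalization) and 1.76% in the WT (127 higher and 91 lower). The WT count was unstable: its 365 probe sets became 45 with the 3'/5' ratio as a covariate and 63 to 591 with 1 array left out. At an unadjusted p under 0.05 the difference held for 1970 genes. With signals under 50 set to 50, a setting that removes changes among the dimmest signals, 263 genes were higher (2.38% of 11033) and 71 lower (0.644%). A total of 92 genes were called both ways with the same sign, 57 higher and 35 lower. The floor also removes the spread among signals under 50, so a gene dim elsewhere can pass through the KO e7 arrays alone. For such genes a call both ways is a naming rule and not added support.

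Most of the higher calls lay among dim probe sets, as the plot of the difference against signal shows. Among 9513 probe sets with a mean signal under 50, 162 were called higher and 3 lower, and the median difference of all of them was 0.97. Among 3671 probe sets above 1000, 4 were higher and 18 lower, and the median was -0.03. Of the 127 genes called higher, 79 had at least 3 of the 4 group means under 50, against 1 of the 40 called lower. The lower genes were brighter, with a median mean signal of 687 against 32 for the higher ones.

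This imbalance moved with the scaling of the arrays. Over all probe sets the median difference was 0.25 as deposited and -0.01 after quantile normalization, a shift of 0.26. After that normalization 86 genes were called (0.694%), 33 higher (0.266%) and 53 lower (0.428%), in place of 127 and 40, and 27 higher and 19 lower calls remained among the probe sets under 50. The KO e7 arrays had a smaller share of low signals and a higher median signal. The median signal averaged 109 in KO e7 and 86.6 in KO mock, against 83.2 in WT e7 and 86.8 in WT mock. These array measures moved with the higher calls, and their part in them was not tested. Of the 92 genes called both ways, 47 were also called with the same sign after quantile normalization, with and without the floor of 50 (20 higher, 27 lower). With quantile normalization and the floor together, 0.678% of genes were higher and 0.669% lower. That stricter set was formed after the values were seen.

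**Figure D2:**
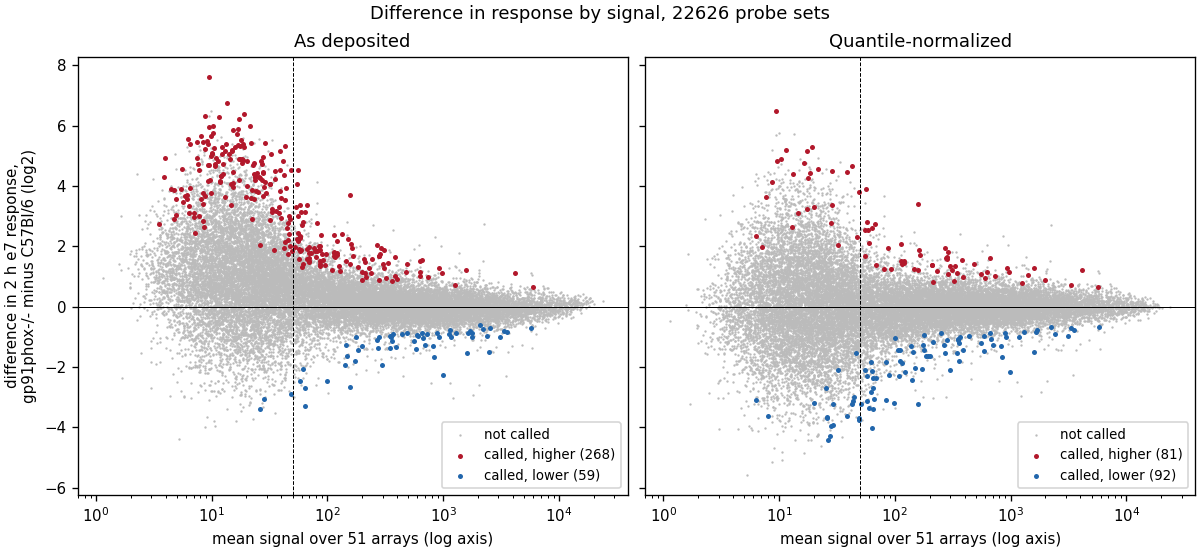
Difference in 2 h e7 response, KO minus WT (log2, vertical axis), against the mean signal over 51 arrays (horizontal, log axis) for 22626 probe sets, as deposited (left) and after quantile normalization (right). Called probe sets are red where higher and blue where lower, 268 and 59 on the left and 81 and 92 on the right, and the dashed line marks a signal of 50.

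Single arrays weighed on the count. The 167 genes became 56 without KO e7 replicate 1, 107 without KO e7 replicate 2, 61 without KO e7 replicate 3 and 77 without KO mock replicate 3. They became 99 without WT e7 replicate 1, 104 without WT e7 replicate 2, 84 without WT mock replicate 2 and 95 without WT mock replicate 3. Without any of the other 6 arrays the count was 112 to 152. Of the 47 genes called in all 4 settings, 27 kept their call and sign without KO e7 replicate 1, 28 without KO e7 replicate 3, 27 without KO mock replicate 3, and 33 to 44 without any other array. Fitted on the 14 arrays alone, 57 of the 167 genes and 18 of the 47 stayed called with their sign.

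That smaller fit ended the call of several genes described below. Its adjusted p was 0.0629 for Casp1, 0.0632 for Atg12, 0.0512 for Ccdc71l, 0.0797 for Mob2, 0.064 for Glipr1, 0.0824 for Stt3b, 0.0996 for Ahsa2 and 0.058 for Dyrk1a.

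Genes with a lower response in the KO are given by call, first a group with the WT response called and then a group with the KO response called. Of the 40 called genes, the WT response was called for 7, the KO response for 25 and neither for 8. Over all genes 1.76% had a called WT response and 8.54% a called KO response. In 36 of the 40 the responses had opposite signs, against 1537 of the 4580 genes with a lower difference of any size. The groups rest on the calls, and genes of either could move in both genotypes. The difference is made from these responses, so the counts are not independent of it. No gene had both responses called. Their median response was -0.62 in the KO and 0.30 in the WT.

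Rgs1, a GTPase-activating protein that damps signalling from chemokine and other G-protein-coupled receptors, was the clearest of the first group. Its log2 signals were 10.63, 11.03 and 10.84 in KO e7 and 9.89, 10.75 and 10.80 in KO mock, against 10.43, 9.95, 9.99 and 10.09 in WT e7 and 7.28, 8.06, 7.62 and 7.06 in WT mock. The KO groups overlapped, whereas all WT e7 arrays lay above all WT mock arrays. The response was 0.36 ± 0.36 in the KO (limma adjusted p = 0.552) and 2.61 ± 0.31 in the WT (adjusted p = 7.1e-06), a difference of -2.25 ± 0.47 (adjusted p = 0.0105). The KO mock arrays were already 2.97 above WT mock (adjusted p = 1.1e-07), and KO e7 exceeded WT e7 by 0.72 without overlap (adjusted p = 0.172). Rgs1 kept its call under all 24 alternative settings, leaving out any 1 array included.

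Ccdc71l and the autophagy gene Atg12 also rose in the WT, while their KO values lay in the opposite direction. Ccdc71l had 10.38, 10.37 and 10.38 in KO e7 and 10.72, 11.08 and 11.16 in KO mock, against 11.54, 11.17, 10.40 and 11.01 in WT e7 and 10.30, 9.93, 9.96 and 10.23 in WT mock. The e7 arrays lay below mock in the KO and above mock in the WT, without overlap in either genotype. The difference of -1.53 ± 0.28 (limma adjusted p = 0.00469) joined a called WT rise of 0.93 to a KO value of -0.61 that was not called (adjusted p = 0.0674).

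Atg12, the ubiquitin-like protein joined to Atg5 when autophagosomes form, had 9.34, 9.40 and 9.43 in KO e7 and 9.71, 9.70 and 9.92 in KO mock, against 10.30, 10.12, 9.52 and 9.37 in WT e7 and 8.97, 9.10, 8.76 and 8.89 in WT mock. Again the groups did not overlap within a genotype, and WT e7 was spread widely (SD 0.45). The responses differed by -1.28 ± 0.25 (limma adjusted p = 0.00659), and KO mock exceeded WT mock by 0.84 (adjusted p = 0.00408). A pair of dimmer Atg12 probe sets gave 0.01 and 0.74 and were not called.

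The other genes with a WT call were Ahsa2, Dyrk1a, Arntl and Uso1. Ahsa2, related to an activator of the chaperone HSP90, rose by 1.28 in the WT (limma adjusted p = 0.000824) and gave -0.03 in the KO, a difference of -1.31 ± 0.32 (adjusted p = 0.0257). Arntl, the clock transcription factor also called BMAL1, differed by -1.01 (adjusted p = 0.0488), and Uso1, a tether of Golgi vesicles that was singled out after its values were seen, differed by -0.87 (adjusted p = 0.0399). Arntl lost its call under 12 of 24 alternatives and Uso1 under 10. Dyrk1a, a dual-specificity kinase, differed by -1.26 (adjusted p = 0.0217). A second Dyrk1a probe set of similar brightness gave 1.19 (adjusted p = 0.0399), so the gene has no settled direction.

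Casp1, the protease that matures IL-1 beta and IL-18 in inflammasomes, belonged to the second group. It had 10.26, 10.60 and 10.40 in KO e7 and 10.78, 11.15 and 11.11 in KO mock, against 10.90, 10.98, 10.86 and 10.60 in WT e7 and 10.66, 10.56, 10.50 and 10.54 in WT mock. KO e7 lay below KO mock without overlap, and the WT groups overlapped. The response was -0.59 ± 0.13 in the KO (limma adjusted p = 0.00436) and 0.27 ± 0.11 in the WT (adjusted p = 0.194), a difference of -0.87 ± 0.17 (adjusted p = 0.00625). KO mock stood 0.45 above WT mock (adjusted p = 0.0309), and KO e7 minus WT e7 was -0.42 (adjusted p = 0.0229).

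Glipr1 and Stt3b were bright genes of this group, both singled out after their values were seen. Glipr1 had 11.54, 11.70 and 11.66 in KO e7 and 12.21, 12.57 and 12.34 in KO mock, against 11.59, 11.45, 11.70 and 11.37 in WT e7 and 11.59, 11.55, 11.40 and 11.31 in WT mock. The KO mock arrays alone stood above the rest: KO mock exceeded WT mock by 0.91 (limma adjusted p = 5.86e-06), the genotypes were 0.11 apart with e7 (adjusted p = 0.63), and the responses differed by -0.80 ± 0.17 (adjusted p = 0.0132). Stt3b, a catalytic subunit of the oligosaccharyltransferase that glycosylates proteins in the endoplasmic reticulum, had 12.27, 12.28 and 12.15 in KO e7 and 12.74, 12.66 and 12.57 in KO mock, against 12.94, 12.78, 12.49 and 12.60 in WT e7 and 12.53, 12.31, 12.43 and 12.45 in WT mock. KO e7 was the lowest group, below every other array, and the WT groups overlapped. Stt3b fell by 0.43 on the log2 scale in the KO (limma adjusted p = 0.021) and differed by -0.70 ± 0.16 (adjusted p = 0.0155). A dimmer Stt3b probe set gave 0.70 (adjusted p = 0.0967) and was called with the floor of 50 (adjusted p = 0.0478), so the gene has no settled direction.

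Tmem41b, a membrane scramblase of the endoplasmic reticulum needed for autophagosome formation, had 9.52, 9.25 and 9.58 in KO e7 and 10.25, 10.43 and 10.28 in KO mock, against 9.97, 10.38, 9.44 and 9.88 in WT e7 and 9.14, 8.91, 9.06 and 9.34 in WT mock. The groups did not overlap within either genotype and moved in opposite directions. Its responses differed by -1.67 ± 0.35 (limma adjusted p = 0.011), with a called KO fall of 0.87 on the log2 scale, and it kept its call under all 24 alternatives. The other 4 Tmem41b probe sets gave -0.94, -0.27, -0.52 and 0.72, none of them called.

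**Figure D3:**
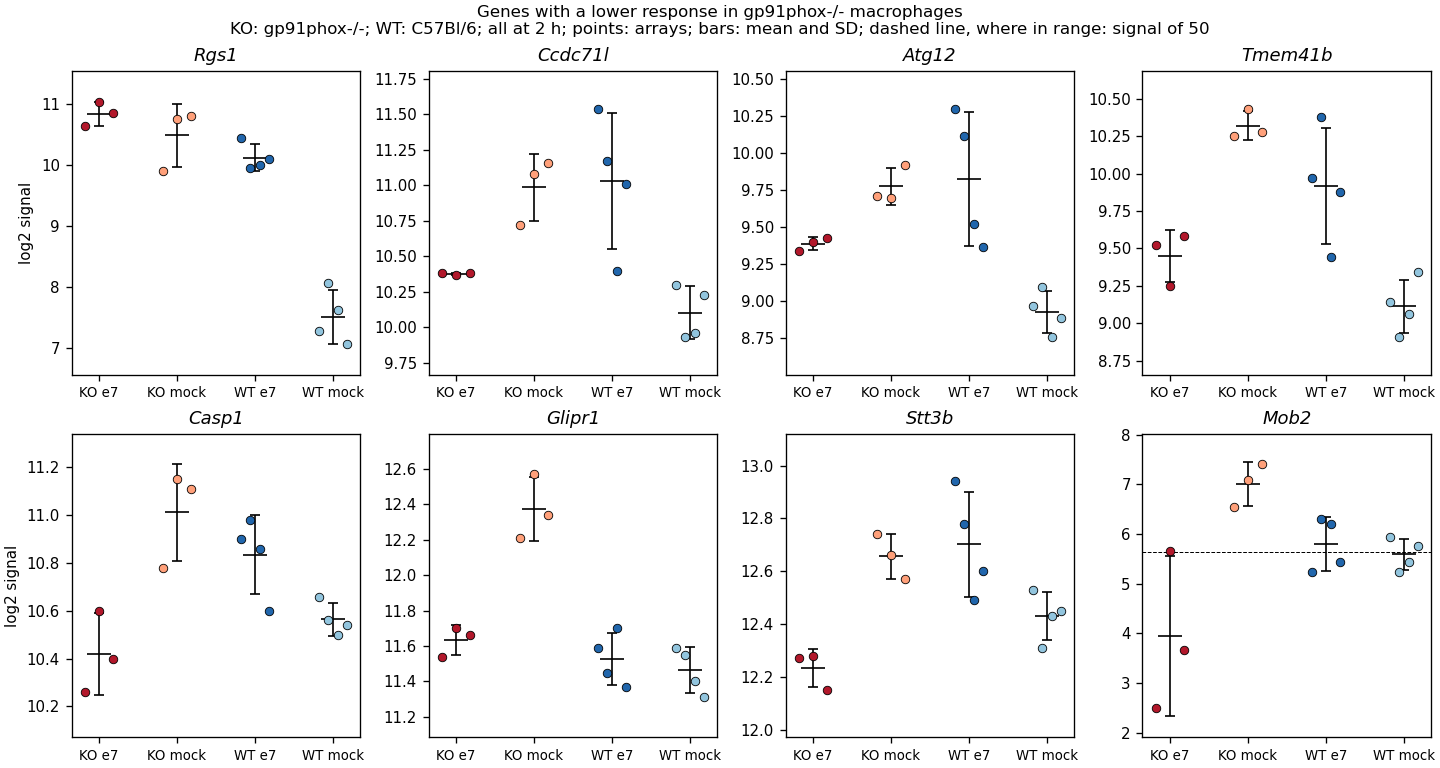
Log2 signal of 8 genes with a lower response in the KO, by array, for KO e7, KO mock, WT e7 and WT mock at 2 h, with group means and SD. Rgs1 is low in the 4 WT mock arrays alone (7.06 to 8.06), and Glipr1 is high in the 3 KO mock arrays alone (12.21 to 12.57).

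Further lower genes by the naming rule had KO responses between -0.42 and -3.07. Mob2, a partner of NDR kinases, gave the lowest value, -3.28 ± 0.63 (limma adjusted p = 0.00625). Its log2 signals were 2.50, 5.67 and 3.67 in KO e7 and 6.54, 7.08 and 7.42 in KO mock, against 5.23, 6.31, 6.21 and 5.44 in WT e7 and 5.94, 5.23, 5.43 and 5.76 in WT mock. The KO e7 arrays lay below the KO mock arrays, overlapped the WT arrays and varied most, and with signals under 50 set to 50 the difference was -1.57 and stayed called.

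Dleu2, a long non-coding RNA, differed by -1.94 (limma adjusted p = 0.0176), and its second probe set gave -0.59 (adjusted p = 0.414). Ints12, a subunit of the Integrator complex that processes small nuclear RNAs, differed by -1.33 (adjusted p = 0.0201), and Tada1, a subunit of the SAGA histone acetyltransferase complex, by -1.04 (adjusted p = 0.0105). Dusp19, a dual-specificity phosphatase, differed by -1.14 (adjusted p = 0.0123), and its second probe set was called too, at -1.29 (adjusted p = 0.0419). Ankrd10 gave -1.40, but a second Ankrd10 probe set gave -0.13 (adjusted p = 0.852). Jtb, a transmembrane protein, and Mtrr, the reductase that reactivates methionine synthase, each gave -1.0. Among genes singled out after their values were seen, Txnl1, a thioredoxin-like protein bound to the proteasome, gave -0.84, and Ube2f, a conjugating enzyme of the ubiquitin-like protein NEDD8, -0.81. Dimmer Txnl1 probe sets gave -0.51, 0.50, 2.10, 1.41 and 2.30, and dimmer Ube2f ones -0.55, -0.63 and -0.27, none of them called.

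Genes with a higher response in the KO were mostly called in the KO alone. Of the 127 called genes, the KO response was called for 109 and the WT response for 4, and the median response was 2.52 in the KO and -0.62 in the WT. In 120 of them the responses had opposite signs, against 3704 of the 7813 genes with a higher difference of any size. With e7, 98 of the 127 were called between the genotypes, against 16 in mock. Over all genes the shares called were 8.54% in the KO response and 1.76% in the WT response. Between the genotypes they were 8.88% with e7 and 2.54% in mock. The difference is made from these same groups, so the counts are not independent of it. The KO e7 arrays, with their smaller share of low signals, enter the KO responses and the comparison with e7, but not the mock comparison.

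The brighter ones are given first, named after their values were seen because they were called in all 4 settings. Setd6, a lysine methyltransferase known to modify the NF-kappaB subunit RelA, had 8.72, 8.94 and 8.64 in KO e7 and 7.78, 7.67 and 7.79 in KO mock, against 8.08, 8.02, 7.97 and 7.63 in WT e7 and 8.60, 8.32, 8.12 and 8.34 in WT mock. The e7 arrays lay above mock in the KO and below mock in the WT, without overlap in either genotype. The responses differed by 1.43 ± 0.21 (limma adjusted p = 0.000961), the lowest adjusted p among the genes named here, and the call stood under all 24 alternatives. A second Setd6 probe set gave 0.93 (adjusted p = 0.0571).

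Bcar1, the adaptor p130Cas of integrin signalling, had 8.08, 7.68 and 7.35 in KO e7 and 5.68, 6.03 and 6.25 in KO mock, against 6.09, 6.39, 6.46 and 5.89 in WT e7 and 6.18, 6.34, 6.52 and 6.13 in WT mock. KO e7 stood apart from the other 3 groups, which overlapped each other. The difference was 1.80 ± 0.32 (limma adjusted p = 0.00283). A dimmer Bcar1 probe set gave -0.75 and was not called (adjusted p = 0.806).

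Def8 had 8.80, 8.86 and 9.20 in KO e7 and 7.60, 7.34 and 7.01 in KO mock, against 7.62, 7.32, 7.99 and 7.97 in WT e7 and 8.21, 8.0, 7.96 and 8.28 in WT mock. KO e7 was the highest group and KO mock lay below WT mock, and the responses differed by 2.03 ± 0.32 (limma adjusted p = 0.00116). Telo2, which stabilises the kinases ATM and mTOR, had 9.19, 8.99 and 9.20 in KO e7 and 7.23, 7.62 and 7.89 in KO mock, against 7.78, 7.76, 7.51 and 7.46 in WT e7 and 7.96, 7.79, 7.62 and 7.63 in WT mock. The KO e7 arrays were more than 1 log2 unit above every other array, and the difference was 1.67 ± 0.35 (adjusted p = 0.0103). Pacs1, a sorting adaptor of the trans-Golgi network, differed by 1.68 (adjusted p = 0.00625) and Rab11fip5, an effector of recycling endosomes, by 1.49 (adjusted p = 0.00539).

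The kinases Map3k7 and Gsk3a, singled out after their values were seen, were higher too, while none of the 22 measured NF-kappaB pathway list genes was called (median -0.14, 1 at an unadjusted p under 0.05). Map3k7, the kinase TAK1 that links Toll-like and IL-1 receptors to NF-kappaB and MAP kinases, had 8.47, 8.26 and 8.36 in KO e7 and 7.61, 6.37 and 6.90 in KO mock, against 8.10, 7.66, 7.98 and 7.75 in WT e7 and 7.73, 7.66, 7.64 and 7.96 in WT mock. KO mock was the lowest group and the most spread, and the responses differed by 1.28 ± 0.30 (limma adjusted p = 0.0233). The call was lost without KO e7 replicate 1 or 3, without KO mock replicate 2 or 3, and with the 14 arrays fitted alone (adjusted p = 0.089), and the other 4 Map3k7 probe sets gave 0.18, 0.42, 1.23 and -0.45, none called. Gsk3a, glycogen synthase kinase 3 alpha, had 11.35, 11.01 and 11.19 in KO e7 and 10.69, 10.33 and 9.95 in KO mock, against 10.56, 10.57, 10.88 and 10.47 in WT e7 and 10.90, 10.90, 11.32 and 10.76 in WT mock. Its difference of 1.21 ± 0.26 (adjusted p = 0.0111) combined a KO rise of 0.86 with a KO mock level 0.65 lower than WT mock, a difference of -0.65 (adjusted p = 0.045), and it was lost without KO mock replicate 3 and with the 14 arrays fitted alone (adjusted p = 0.0628).

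Pold1, Kif23 and Nmd3 were singled out after their values were seen, and none of the 29 measured cell cycle list genes was called (2 at an unadjusted p under 0.05, both higher). Pold1, the catalytic subunit of DNA polymerase delta, differed by 1.42 (limma adjusted p = 0.0156), Kif23, a kinesin of cytokinesis, by 1.11 (adjusted p = 0.0189) and Nmd3, the export adaptor of the large ribosomal subunit, by 0.99 (adjusted p = 0.0419). For all 3, KO mock was below WT mock, by limma differences of -0.94, -0.84 and -0.67, and KO e7 and WT e7 were not called apart. A second Pold1 probe set gave 0.17 (adjusted p = 0.904). The dimmer probe sets gave 1.18 and 2.64 for Kif23 and 0.93 for Nmd3, none called as deposited.

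**Figure D4:**
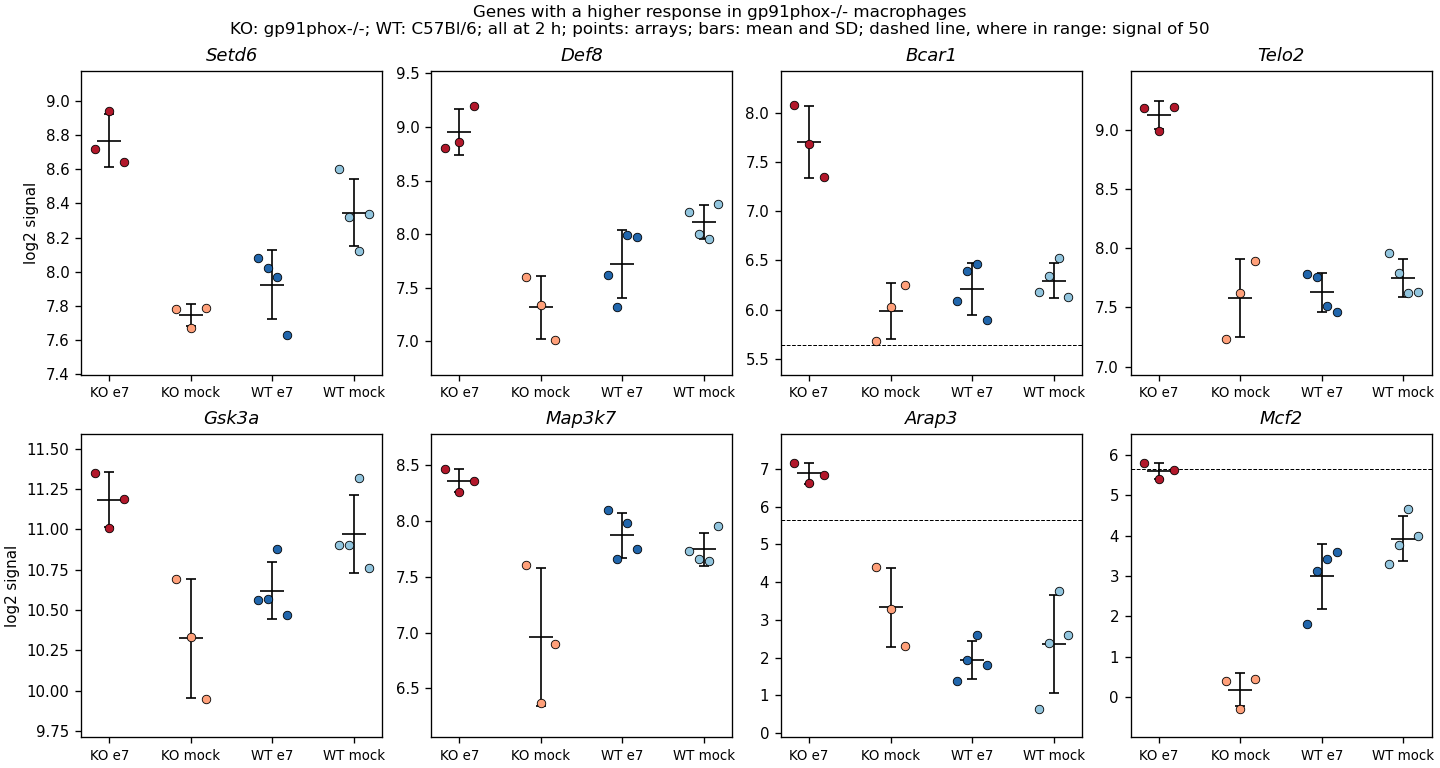
Log2 signal of 8 genes with a higher response in the KO, by array, for KO e7, KO mock, WT e7 and WT mock at 2 h, with group means and SD; the dashed line, where in range, marks a signal of 50. The 3 KO e7 arrays are the highest for Bcar1, Telo2 and Arap3, and for Mcf2 no group mean is above a signal of 50.

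The largest higher values belonged to genes that were dim outside KO e7. Arap3, a GTPase-activating protein, had 7.17, 6.63 and 6.85 in KO e7 and 4.41, 3.29 and 2.31 in KO mock, against 1.39, 1.94, 2.61 and 1.81 in WT e7 and 0.64, 2.40, 3.77 and 2.61 in WT mock. Only KO e7 exceeded a signal of 50, and the difference of 3.97 ± 0.89 (limma adjusted p = 0.0164) became 1.24 (adjusted p = 0.00164) with the floor of 50. Adcyap1r1, the receptor of the neuropeptide PACAP, gave 3.13 and, with the floor, 1.75. These 2 were the only genes of the 15 highest called in all 4 settings. For Arap3 the floored calls came from the KO e7 arrays alone and are not added support. Both genes lost their call with the 14 arrays fitted alone and with a floor of 100. Arap3 also lost it without KO e7 replicate 1 or KO mock replicate 3, and Adcyap1r1 without KO e7 replicate 3. Dimmer probe sets gave 0.03 for Arap3 and 2.81 for Adcyap1r1, neither called.

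The other 13 of the 15 highest also gave smaller values with the floor. Sncg, gamma-synuclein of neurons, gave 5.86 as deposited and 0.48 with the floor, Myh3, an embryonic muscle myosin, 5.52 and 0.58, and Gpr83, a G-protein-coupled receptor, 5.41 and 0.54. Kcna7, a potassium channel, gave 5.06 and 0.95, H2-T18, a non-classical MHC class I gene, 4.83 and 1.26, and Clip2, a microtubule linker, 4.22 and 0.81. Obsl1, a cytoskeletal adaptor, gave 3.01 and 0.97, Thrb, a thyroid hormone receptor, 2.78 and 1.11, Kifc2, a kinesin, 2.76 and 2.04, and Rhbdl1, a rhomboid-family protein, 2.39 and 1.0. Cirbp, a cold-inducible RNA-binding protein, gave 2.27 and 1.10, Dnmt3b, a de novo DNA methyltransferase, 2.18 and 1.23, and Col1a1, the collagen of fibroblasts, 4.84 and 0.64. With the floor the WT response was 0 for Sncg, Myh3, Gpr83, Col1a1, Clip2 and Thrb, so their floored differences came from the KO arrays alone. The limma SE of Sncg went from 1.5 to 0.11. Second probe sets gave 2.69 for Col1a1, 3.29 for Kifc2, 0.80 for Dnmt3b and -0.18 for Obsl1, none called as deposited.

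A further 44 called higher genes had all 4 group means under 50, and their fold changes describe signals below that level. Mcf2 had 5.80, 5.41 and 5.61 in KO e7 and 0.39, -0.29 and 0.44 in KO mock, against 1.81, 3.13, 3.41 and 3.59 in WT e7 and 3.29, 3.76, 4.65 and 4.00 in WT mock. The KO e7 arrays were the highest and the KO mock arrays the lowest. The difference was 6.37 ± 1.33 (limma adjusted p = 0.0105), but with the floor of 50 the difference was 0.05 and was not called. Ccl11, the eosinophil chemokine eotaxin, gave 5.47 as deposited and 0.00 with the floor. Cd163, a haemoglobin scavenger receptor, Hspa1l, an HSP70 relative, and Nxf7 gave 5.66, 5.56 and 5.31, and Sgtb, the only called lower gene of this kind, gave -3.38.

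List genes were called about as often as other genes. Of 582 distinct genes in 30 lists, 8 of them cell type markers, 3 were called higher and 3 lower (1.03%, against 1.35% of all genes), and the 3 higher ones, Ccl11, Cd163 and the stromal marker Col1a1, were dim. Over the 22 pathway lists alone, 2 of 488 genes were higher and 2 lower (0.82%). The 3 lower ones were Rgs1, Casp1 and the T cell marker Lat, which links the T cell receptor to its downstream enzymes, at -2.69 (limma adjusted p = 0.00283) that was not called with the floor of 50 (adjusted p = 0.106). With the floor, 6 list genes were higher and 5 lower, against 3.03% of all genes.

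Among chemokine and cytokine genes, Ccl11 alone was called for a difference in response as deposited. Of 25 chemokine genes, 3 rose in the WT (Ccl3, Cxcl1 and Cxcl2) and 2 in the KO (Ccl11 and Cxcl1), and the median difference in response was 0.08 against 0.20 over all genes. Cxcl2, a neutrophil attractant, had 12.05, 11.77 and 12.05 in KO e7 and 10.34, 10.04 and 10.06 in KO mock, against 12.81, 11.98, 11.52 and 12.04 in WT e7 and 8.32, 7.91, 7.76 and 7.91 in WT mock. The e7 arrays reached a like level in the genotypes and the KO mock arrays stood above WT mock without overlap, but the difference of -2.30 ± 1.05 was not called (limma adjusted p = 0.269).

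Ccl3, a monocyte and granulocyte attractant, had 10.46, 10.15 and 10.47 in KO e7 and 10.23, 10.14 and 10.57 in KO mock, against 9.60, 9.74, 10.16 and 10.43 in WT e7 and 7.35, 8.08, 7.58 and 6.59 in WT mock. Only the WT mock arrays were low. Its responses differed by -2.54 ± 0.96 (adjusted p = 0.174), while KO mock exceeded WT mock by 2.92 (limma adjusted p = 0.0112). Untreated KO macrophages exceeded untreated WT ones too, by 3.76 for Ccl3 (adjusted p = 0.00091) and by 2.55 for Rgs1 (adjusted p = 4.11e-06). Cxcl1, another neutrophil attractant, rose in both genotypes, by 2.19 in the KO and 2.89 in the WT, and differed by -0.70 (adjusted p = 0.71).

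Other inflammatory mediators gave values without a call. The difference was 0.22 ± 0.54 for Tnf (limma adjusted p = 0.882) and -1.27 ± 1.21 for Il1b (adjusted p = 0.654). It was -0.77 ± 0.52 for Il1a (adjusted p = 0.506) and 1.07 ± 0.43 for Nlrp3 (adjusted p = 0.199), the sensor of an inflammasome, whose KO response alone was called at 1.02. Standard errors of this size mean that differences of more than 1 log2 unit in Tnf or Il1b could have gone uncalled. Among 14 genes of the IL-1 and inflammasome list, Casp1 was the only call, and the median was 0.05.

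Immediate-early genes gave no call. Egr1, an early transcription factor, rose by 2.05 in the KO and 2.60 in the WT and differed by -0.56 (limma adjusted p = 0.769), and Atf3, a stress-induced one, gave 0.82 in the KO, not called, and 1.39 in the WT, called (difference adjusted p = 0.526). None of the 24 measured immediate-early genes was called, with 1 at an unadjusted p under 0.05. Of 23 genes of MAP kinase feedback and RGS proteins, Rgs1 was called, and Dusp2, a nuclear MAP kinase phosphatase, was called higher with the floor alone (1.14, adjusted p = 0.00348, against 0.56 as deposited). The floored Dusp2 response was 1.15 in the KO and 0.01 in the WT.

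Receptors and uptake genes gave few calls. Tlr4, the endotoxin receptor, rose by 0.77 in the WT and gave -0.11 in the KO, and its 2 probe sets differed by -0.88 and -0.84 (limma adjusted p = 0.0974 and 0.0657). Clec4e, the receptor Mincle, differed by -1.02 (adjusted p = 0.433), with KO mock 1.99 above WT mock (adjusted p = 0.00565). Fgr, a Src-family kinase of phagocytes, had 9.65, 9.31 and 9.39 in KO e7 and 9.34, 8.64 and 8.76 in KO mock, against 8.17, 8.67, 9.17 and 9.06 in WT e7 and 9.22, 9.30, 9.31 and 9.47 in WT mock. WT e7 lay below WT mock without overlap, and the KO groups overlapped. Its difference of 1.09 missed the threshold as deposited (adjusted p = 0.068) and passed it with the floor (adjusted p = 0.0406) and after quantile normalization (adjusted p = 0.0438). None of the 30 fungal recognition and phagocytic receptor genes was called, with 1 at an unadjusted p under 0.05.

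Antioxidant genes gave no call, with a median of -0.01 over 25 genes and 2 at an unadjusted p under 0.05. Nfe2l2, the regulator NRF2 of antioxidant genes, rose by 0.58 in the WT and gave 0.26 in the KO, and differed by -0.32 (limma adjusted p = 0.369). Its target Hmox1, haem oxygenase, had 9.27, 9.81 and 9.68 in KO e7 and 10.33, 10.65 and 10.96 in KO mock, against 8.81, 8.61, 9.25 and 9.48 in WT e7 and 8.59, 8.86, 8.85 and 8.30 in WT mock. The KO mock arrays stood above all others, 1.99 over WT mock (adjusted p = 0.000199), and the difference of -1.45 ± 0.47 was not called (adjusted p = 0.106).

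In the heat shock and unfolded protein list 17 of 25 genes had a difference below 0, with a median of -0.22, and 6 were lower at an unadjusted p under 0.05, none of them called as deposited. Over all genes 37% were below 0, the median was 0.20, and 3.8% were lower and 12.1% higher at that threshold. These all-gene values were not matched for signal. The median difference was 0.05 for probe sets with a mean signal from 200 to 1000 and -0.03 above 1000. With the floor, Dnaja1 and Hsph1, co-chaperones of HSP70, were called lower at -1.49 (limma adjusted p = 0.0419) and -1.44 (adjusted p = 0.0496). Dnaja1 had 11.64, 11.79 and 11.71 in KO e7 and 11.24, 12.68 and 12.72 in KO mock, against 12.35, 12.92, 12.04 and 12.69 in WT e7 and 11.77, 11.49, 11.29 and 11.49 in WT mock. KO mock replicate 1 lay below the KO e7 arrays and the other KO mock arrays above them, and without that array the as-deposited call of both genes passed. Hspa1a, an inducible HSP70, differed by -2.52 ± 0.98 (adjusted p = 0.188), with KO mock 3.53 above WT mock (adjusted p = 0.00203).

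**Figure D5:**
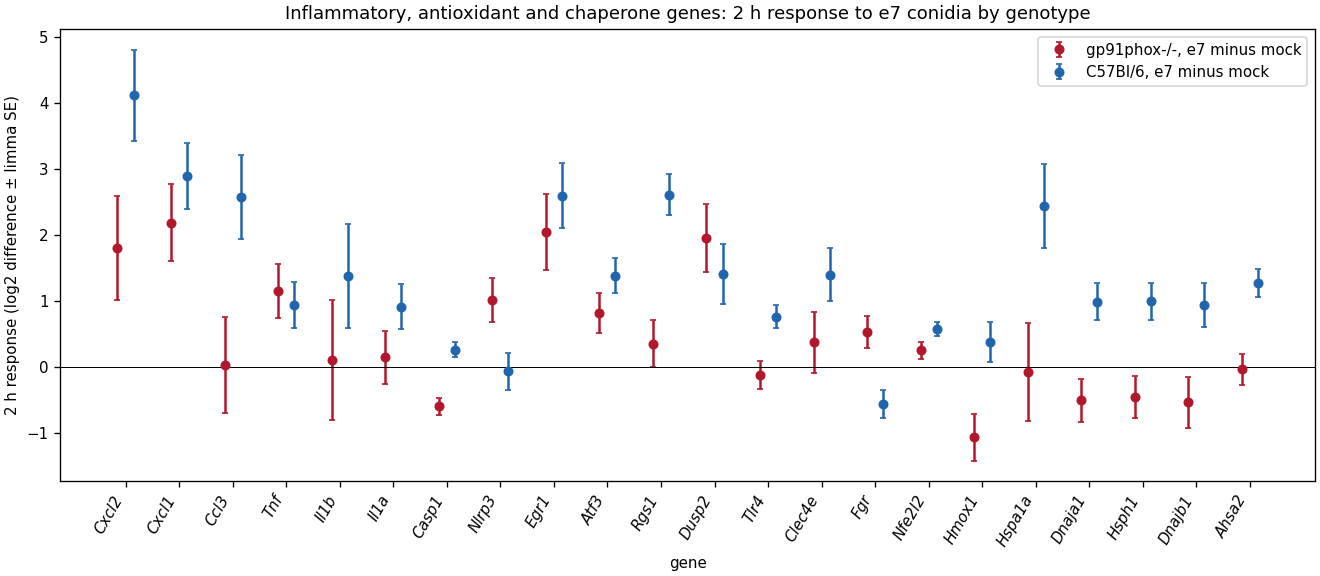
Response to e7 at 2 h (e7 minus mock, log2) in the KO (red) and the WT (blue) for 22 inflammatory, antioxidant and chaperone genes, with limma standard errors. Rgs1, Casp1 and Ahsa2 are the genes shown whose difference was called as deposited.

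Housekeeping lists gave no call, and their medians were below the 0.20 of all genes. The all-gene values in this paragraph include many dim genes and were not matched for signal. By mean signal, the median difference was 0.97 for probe sets under 50, 0.05 for those from 200 to 1000 and -0.03 above 1000. The median difference was -0.14 for 29 mitochondrial respiratory chain genes, -0.04 for 18 ribosomal protein genes and -0.10 for 26 proteasome genes. In the same order, 18, 10 and 19 genes had a difference below 0, against 37% of all genes. At an unadjusted p under 0.05, 3, 1 and 3 genes of these lists were lower and 2, 1 and 1 higher, against 3.8% and 12.1% of all genes. Cox6c and Cox6a1, subunits of cytochrome c oxidase, fell in the KO by 1.09 and 0.93 on the log2 scale and gave differences of -0.88 (limma adjusted p = 0.0965) and -0.71 (adjusted p = 0.102). A second Cox6c probe set of similar brightness gave -0.06 (adjusted p = 0.91), and a dimmer Cox6a1 one -0.53 (adjusted p = 0.603).

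Markers of T and NK cells, B cells and stroma were dim, and among the 4 groups compared the T, NK and B cell means were highest in KO e7. Stromal, monocyte and dendritic, lung epithelial and erythroid markers also had their highest group mean in KO e7. In that order these means were 5.38, 6.74, 6.9 and 5.6, and for each list KO e7 arrays overlapped KO mock arrays. Neutrophil markers did not, with a mean of 5.57 in KO e7 and 5.69 in KO mock. Outside the 4 groups compared, KO 4 h e6 gave higher means, 5.98 to 6.07 for T and NK cell and 5.53 to 6.04 for B cell markers. The mean log2 signal of 16 T and NK cell markers was 5.47 to 5.69 in KO e7 and 4.63 to 5.04 in KO mock, against 3.81 to 4.59 in WT e7 and 3.95 to 4.55 in WT mock. That of 15 endothelial and stromal markers was 4.99 to 5.66 in KO e7 and 4.32 to 5.02 in KO mock, against 4.12 to 4.67 in WT e7 and 4.39 to 4.84 in WT mock. That of 11 B cell markers was 5.18 to 5.51 in KO e7 and 4.46 to 5.08 in KO mock, against 3.96 to 4.42 in WT e7 and 4.51 to 5.04 in WT mock, and their median difference was 1.79 (0.87 after quantile normalization), with none called. In the T and NK list 6 of 16 genes had a difference below 0 and Lat was called lower. As deposited, Cd4 (limma adjusted p = 0.06) and Cd8a (adjusted p = 0.129) were not called. With the floor, Cd4 (0.94, adjusted p = 0.00893) and Cd8a (1.04, adjusted p = 0.00698) were called higher. In the groups compared, all their signals outside KO e7 were under 50. Their floored values thus came from the KO e7 arrays alone, and these calls are not added support. Their second probe sets gave 0.75 and -1.71 as deposited, not called. After quantile normalization the median difference over the T and NK list was -0.07, against 0.53 as deposited. Their part in the higher calls was not tested.

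Genes that differed in response differed between the genotypes in mock, with e7 or in neither, and seldom in both. Of the 27 lower genes called in all 4 settings, 8 were called between the genotypes in mock and 19 with e7, and of the 20 higher ones 8 in mock and 14 with e7, with 2 and 3 genes called in both. Over all genes 2.54% were called in mock and 8.88% with e7, where 807 were higher in the KO and 293 lower, or 323 and 438 after quantile normalization. The median difference of KO mock from WT mock was 0.44 for the 27 lower genes and -0.59 for the 20 higher ones, opposite in sign to their differences in response. The mock groups enter the difference in response with the opposite sign, so this comparison is not independent of it.

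The 4 h arrays share no array with the 2 h comparison. The same difference at 4 h was called for 27 genes as deposited (0.218%), none of them among the 167, and for 328 genes with the floor of 50 (2.97%, against 3.03% at 2 h). With the floor, 16 genes were called at both times, 7 with the same sign (Ahsa2, Chtf18, Creld2, Fgr, Haus5, Jtb and Phykpl) and 9 with the opposite sign. Ahsa2 gave -1.16 at 4 h (limma adjusted p = 0.0384 with the floor), and Jtb gave -0.81 (adjusted p = 0.0445). The sign at 4 h was the same for 28 of the 57 higher genes called both ways (49.1%, against 49.4% of all genes with a higher difference) and for 19 of the 35 lower ones (54.3%, against 45.7%). The as-deposited 4 h count rested on single arrays: it was 142 genes without WT 4 h e7 replicate 1 and 1475 genes (11.9%) without WT 4 h e7 replicate 4, and 4 to 15 without any other array. Without WT 4 h e7 replicate 4, 4 of the 47 genes called in all 4 settings were called at 4 h with the same sign, namely Jtb, Ahsa2, Dusp19 and Pold1, and without replicate 1 none was.

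At the lower dose e6 no gene was called for a difference in response at 2 h by limma (0 of 12393), with 471 genes at an unadjusted p under 0.05, and none with the floor of 50 (331 of 11033 at that p). The e6 comparison uses the same mock arrays. Rgs1 gave -1.47 there against -2.25 with e7, Casp1 -0.65 against -0.87, and Setd6 0.41 against 1.43. Whether the difference depends on the dose was not tested.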

How the data were processed

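The values are the series' table of signal intensity per probe set, deposited by the authors for 51 Affymetrix mouse arrays of alveolar macrophage RNA. The submitters' processing notes name GCOS and RMA, without versions or roles. Per the labels' protocols, 100 ng of total RNA was labelled in an amplification of 2 cycles. The deposited intensities are linear, and the mean trimmed by 2% at each end is 500 on every array, so arrays were scaled but do not share a distribution. The share of low signals was therefore free to differ between arrays. Probe-level files were not used here, and the number of arrays limits the precision.

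A limma model (version 3.58.1, R 4.3.3) with 1 mean for each of the 15 groups was fitted to log2 intensities, with no pseudocount or filter, and moderated with eBayes at its defaults. P-values were two-sided and adjusted by Benjamini-Hochberg over 22626 probe sets, after 64 control probe sets were left out, and called at an adjusted p under 0.05. Values are log2 differences ± limma standard errors unless SD is named. A total of 20380 probe sets had 1 symbol in GEO's platform annotation, 691 several and 1555 none. A gene was its brightest probe set with 1 symbol (12393 genes). With signals under 50 set to 50, 19562 probe sets could be fitted.

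By rule, the 15 highest and 15 lowest genes called as deposited and with the floor were named, with 5 per direction whose 4 group means were under 50, members of 30 gene lists, and Cybb. The contrast, the lists and the further genes said to be singled out were chosen with earlier results of these data known. The scripts were tested on simulated data. Same-numbered arrays of different groups did not deviate together (18 pairs, r from -0.069 to 0.036), so replicate numbers were not treated as pairs. Alternatives were quantile normalization, the 14 arrays alone, array weights, the 3'/5' ratio as a covariate, a pseudocount of 16, a filter at a mean signal of 50, a trended and robust variance, a replicate block, floors of 25 and 100, and each array left out.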

Additional observations from a re-analysis of the deposited data

Results flagged for a closer look

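Values standing apart from the other arrays of their group (Dixon's test at its 95% critical value) were found in 5 of 166 groups of 4 arrays, and chance gives about 1 in 20. These were the log2 signals of Sncg (3.74), Adcyap1r1 (3.11) and Thrb (4.11) in 1 WT e7 array each, of Kifc2 (5.44) in a WT mock array, and the log2 3'/5' ratio of 0.93 in a WT mock array. The 4 genes are among the dim higher ones.

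The difference between the KO and WT responses is itself the test reported, and it passed for 54 named genes. Differences are as deposited. The 15 highest of those also called with the floor of 50 were Sncg (5.86), Myh3 (5.52), Gpr83 (5.41), Kcna7 (5.06), Col1a1 (4.84), H2-T18 (4.83), Clip2 (4.22), Arap3 (3.97), Adcyap1r1 (3.13), Obsl1 (3.01), Thrb (2.78), Kifc2 (2.76), Rhbdl1 (2.39), Cirbp (2.27) and Dnmt3b (2.18). The 15 lowest were Mob2 (-3.28), Rgs1 (-2.25), Dleu2 (-1.94), Tmem41b (-1.67), Ccdc71l (-1.53), Ankrd10 (-1.40), Ints12 (-1.33), Ahsa2 (-1.31), Atg12 (-1.28), Dyrk1a (-1.26), Dusp19 (-1.14), Tada1 (-1.04), Arntl (-1.01), Jtb (-1.0) and Mtrr (-1.0). The genes with all 4 group means under 50 were Mcf2 (6.37), Cd163 (5.66), Hspa1l (5.56), Ccl11 (5.47), Nxf7 (5.31) and Sgtb (-3.38). Casp1 (-0.87) and Lat (-2.69) came from the lists. The genes singled out after their values were seen were Def8 (2.03), Bcar1 (1.80), Pacs1 (1.68), Telo2 (1.67), Rab11fip5 (1.49), Setd6 (1.43), Pold1 (1.42), Map3k7 (1.28), Gsk3a (1.21), Kif23 (1.11), Nmd3 (0.99), Stt3b (-0.70), Glipr1 (-0.80), Ube2f (-0.81), Txnl1 (-0.84) and Uso1 (-0.87).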

How the results depend on the processing

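Counts here are probe sets called by limma. The difference in response was called for 327 probe sets as deposited (268 higher, 59 lower), 173 after quantile normalization (81 higher, 92 lower), 1211 with array weights, 642 with the pseudocount and 177 with the filter on dim probe sets, and for 126 to 302 with 1 array left out. With the floor of 50 the count was 613, against 257 after quantile normalization, 977 with the 14 arrays alone, 321 with the filter and 270 with a floor of 100, and 356 to 1135 with 1 array left out. Array weights did not converge on floored values and were not run there. The KO response gave 1957, 4672 with array weights and 688 to 1274 with 1 array left out. The WT response gave 365, and 1342 with array weights, 45 with the 3'/5' covariate, 832 with the filter, 592 with trended and robust variance, 581 with the replicate block and 63 to 591 with 1 array left out. KO minus WT gave 2011 with e7 (3225 with array weights, 1280 with the filter, 884 to 1678 with 1 array left out) and 509 in mock (1581 with array weights, 223 to 470 with 1 array left out). At 4 h the count of 43 became 0 with only the arrays compared, 968 with array weights, 5 with the covariate, 654 with the filter, 336 with trended and robust variance, 76 with the replicate block and 5 to 2389 with 1 array left out. The replicate block gave 366 for the difference in response, and the numbers did not pair the arrays. The causes were not tested, except that the filter and higher floors test fewer probe sets.

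For the named genes, 1891 pairs of a gene and an alternative gave no change of sign among called values, 277 lost calls and 35 gained calls. Of the 54 called genes, 11 passed under every alternative run for them: Rgs1, Tmem41b, Tada1, Ube2f, Setd6, Def8, Bcar1, Rab11fip5, Telo2, Pacs1 and Pold1. Signals near the background limit the dim higher genes.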

Other observations

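In the KO response, 6 of 29 mitochondrial respiratory chain genes fell with e7 (Cox4i1, Cox6a1, Cox6c, Ndufa4, Ndufb3 and Ndufb8) and none rose, and 6 of 18 ribosomal protein genes fell (Rpl10a, Rpl19, Rpl7, Rplp0, Rps24 and Rpsa) and none rose. Over all genes 2.65% fell and 5.88% rose in the KO response, or 4.33% and 2.73% after quantile normalization. In the WT response Ndufa4 and Cox5b fell and Cox7c rose among the respiratory chain genes, and Rpl22, Rpl6 and Rps19 fell among the ribosomal ones. Over all genes 0.734% fell and 1.02% rose in the WT response. The all-gene shares were not matched for signal. None of the respiratory chain and ribosomal genes was called for the difference in response.

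Of the 92 genes called both as deposited and with the floor of 50, 46 had more than 1 probe set. In 31 of the 46 all other probe sets had the same sign of the difference, and in 2 another probe set was called with the same sign. As deposited, Dyrk1a alone had called probe sets of opposite sign, -1.26 and 1.19, and with the floor of 50 Clcn5, Dyrk1a and Stt3b did.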
